A study of Capra hircus with 29 samples.

Results

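The RAB small GTPases of goat oocytes were taken from the oocyte expression table by symbol, as every row whose gene symbol is RAB followed by a number, with at most 1 letter and a short L suffix after it. The rule found 64 of the 21343 rows of the table, and these carried 59 different symbols. One of them, RAB3IL1, is an exchange factor that activates RAB proteins and not a GTPase itself, so 63 rows and 58 symbols were RAB GTPases. Of the 64 rows, 59 carried the annotation terms GTP binding and GTPase activity, and those without were RAB3IL1, RAB7A and the second rows of RAB14, RAB5B and RAB8B. The 5 symbols RAB11A, RAB14, RAB2B, RAB5B and RAB8B stood on 2 rows each, 10 rows in all, and how reads were divided between such copies was not tested.

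RAB proteins are molecular switches on membranes. An exchange factor loads a RAB with GTP, the active RAB recruits effectors such as tethers and motors to a vesicle, and a GTPase-activating protein of the TBC family switches it off, after which a GDP dissociation inhibitor lifts it from the membrane. Each RAB marks a step of traffic, and in oocytes RAB11 vesicles are known to organise the actin network that moves the spindle, while RAB3A and RAB27A are known for the release of cortical granules at fertilisation.

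The oocytes came from Ji'ning grey goats, a domestic breed, and were sequenced as small pools of cells from follicles of 3 sizes. High fertility goats were those with more than 3 kids per birth in the labels, and low fertility goats those with fewer than 2, although the study's methods draw both limits inclusively. The groups were HLO, HMO and HSO for oocytes of large, medium and small follicles of high fertility goats, and LLO, LMO and LSO for those of low fertility goats, with 5 samples each except HSO with 4. No age or genotype was given, and fertility was a grouping of whole animals, not a manipulation. Oocytes of a stage were combined across goats before they were divided into samples, so a p-value below measures the spread between these samples and not between animals.

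All values are FPKM (fragments per kilobase of exon, scaled to the mapped fragments of the sample), which are per gene length, so levels of different genes can be set side by side. Differences between groups are on the log2(FPKM + 1) scale and understate the change of low genes. The table holds no read counts, and the depth of each sample is not known from it. The sum of FPKM over all rows was 347806 to 490048 in 28 samples and 222697 in LMO replicate 2, which stands apart, and results that it moves are given with and without it. The label of the cells held by the summed markers. The oocyte genes GDF9, BMP15, ZP2 and ZP3 were above 0.5 FPKM in all 29 samples, but NLRP5 in only 5, at a mean of 0.305. The 10 oocyte markers summed to 1588 to 10277 FPKM. Of 10 granulosa markers, 5 passed 0.5 FPKM in any sample, and the 10 summed to 1.89 to 15.7, most of it KITLG. KITLG was above 0.5 FPKM in all 29 samples and INHBA in 10, while AMH was at 0 in every sample and LHCGR in 27. The 8 leukocyte markers summed to 2.28 to 7.99, with CD14 and TYROBP at 0 throughout. Of these, LCP1 was above 0.5 FPKM in 29 samples and CORO1A in 27. The 4 theca and stroma markers summed to 2.94 to 18.9, mostly DCN, which passed 0.5 FPKM in 29 samples, and COL1A2 passed in 28. The 4 endothelial markers summed to 0.125 to 2.33, and the red cell marker reached at most 0.464. Because FPKM is scaled to each sample, it gives shares of the transcripts of a pool and no amount per oocyte.

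A single gene, RAB11A, made up most of the RAB transcripts of the oocyte. RAB11A, which directs recycling endosomes, had a mean over the 6 group means of 725 FPKM, a level above 99.5% of all genes in the table. It was the highest RAB in 29 of 29 samples, and it took 25.1% to 78.7% of the summed RAB FPKM, with a median of 71.1%. The 64 rows together took 0.0952% to 0.412% of the summed FPKM of a sample.

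RAB11A varied widely within each group. In HLO it stood at 1131, 460, 620, 359 and 1218 FPKM in replicates 1 to 5, and in LLO at 1263, 94.3, 206, 795 and 412. In HMO it stood at 1211, 424, 379, 673 and 1101, and in LMO at 956, 196, 238, 995 and 1312. In HSO it stood at 1149, 296, 647 and 1396 in replicates 1, 3, 4 and 5, and in LSO at 400, 312, 319, 1112 and 1190. Each group held both high and low samples, and high and low fertility groups overlapped at all 3 follicle sizes.

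Below RAB11A the levels dropped by more than an order of magnitude and then fell off gradually. RAB2A and RAB2B, which act between the endoplasmic reticulum and the Golgi, had means of 40.9 and 21.6 FPKM, and RAB1A, which drives transport from the endoplasmic reticulum to the Golgi, had 26.7. RAB9A, which returns receptors from late endosomes to the Golgi, had 39.8, and RAB32, known from lysosome-related organelles and mitochondria, had 34.1. RAB10 and RAB8A, which carry vesicles to the plasma membrane, had 24.4 and 17.8, RAB27A, which docks secretory granules, had 17.5, and RAB28, a RAB known from cilia, had 12.0. These 10 genes were the only members with a mean above 10 FPKM. A further 17 had a mean above 1 and at most 10, and 37 were at or below 1.

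Neighbours in this order mostly could not be ranked. RAB2A exceeded RAB9A in 15 of 29 samples, RAB9A exceeded RAB32 in 15, RAB1A exceeded RAB10 in 12, and RAB8A exceeded RAB27A in 16. The clearer steps were RAB11A over RAB2A in 29 of 29 and RAB32 over RAB1A in 22. The second place was held by RAB9A in 14 samples, by RAB2A in 11 and by RAB32 in 4.

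**Figure D1:**
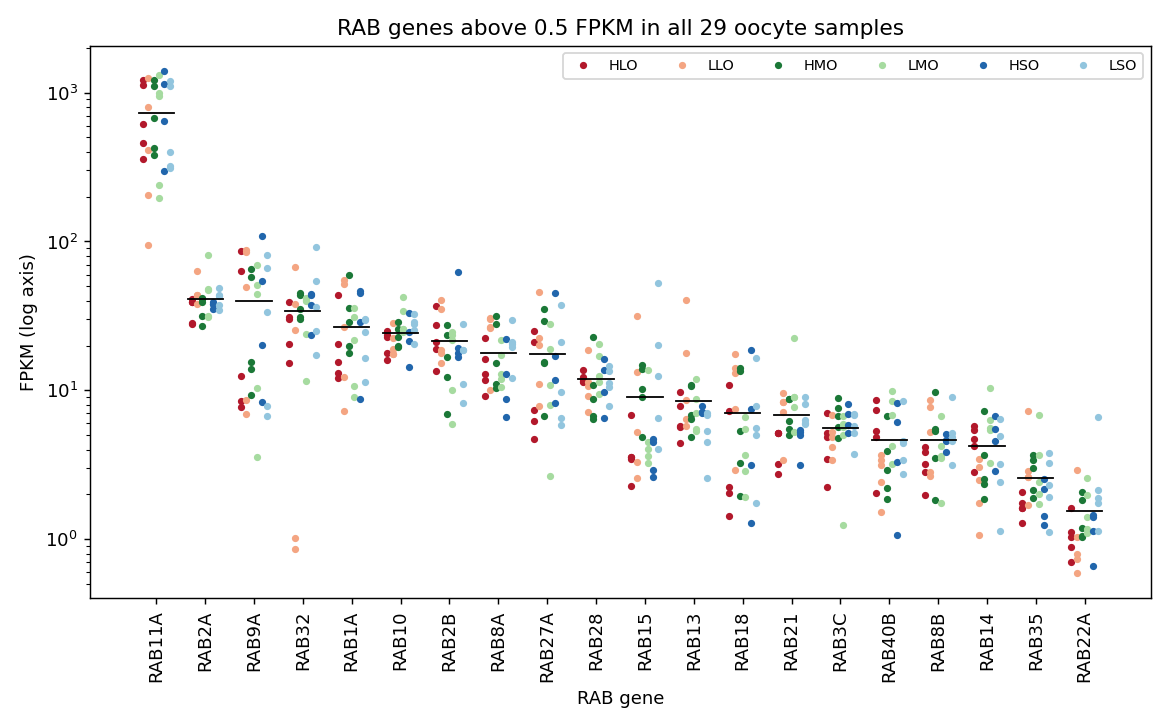
FPKM on a log axis of the 20 RAB genes that were above 0.5 FPKM in all 29 oocyte samples. Each point is 1 sample, coloured by group, and each line is the mean of the 6 group means. RAB11A lies above every other RAB gene in every sample, and RAB32 drops to 0.861 and 1.02 FPKM in 2 LLO samples.

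By role, the early and recycling endosome members took a median of 74.3% of the summed RAB FPKM per sample, almost all of it RAB11A. The members acting from the endoplasmic reticulum to and within the Golgi took 9.62%, those of secretion and traffic to the plasma membrane 8.73%, and those of late endosomes, lysosomes and related organelles 7%. Of the early and recycling endosome rows 14 of 19 were above 0.5 FPKM in at least 4 of 29 samples. The same held for 9 of 16 endoplasmic reticulum and Golgi rows, 8 of 13 secretion rows and 5 of 9 late endosome and lysosome rows. In all 39 of 64 rows passed, or 60.9%, against 45.4% of all genes.

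In several families of closely related RAB genes, a single gene held nearly all of the summed FPKM, while other families were more evenly split. Within the RAB11 family, RAB11A made up 99.9% of the summed FPKM, with RAB11B at a mean of 0.411 FPKM and the epithelial RAB25 at 0.0727. RAB1A made up 98.5% of RAB1A and RAB1B, RAB9A 99.3% of RAB9A and RAB9B, RAB27A 95.4% of RAB27A and RAB27B, and RAB32 99.9% of RAB32 and RAB38. In each of these families the leading gene was higher in all 29 samples. RAB2A and RAB2B were both abundant, with RAB2A higher in 28 of 29 samples, and RAB8A exceeded RAB8B, at a mean of 4.61 FPKM, in all 29. Of the summed FPKM of its family, RAB2A made up 65.7%, RAB6A 65.8%, RAB3C 52.7% and RAB5A 51.6%.

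The RAB3 family, which primes secretory vesicles for release, was divided between RAB3C at 5.56 and RAB3B at 4.50 FPKM, and RAB3C was the higher in 21 of 29 samples. RAB3A, the member known from cortical granules, was listed at a mean of 0.205 FPKM, at 0.0129 to 0.743 over the samples, and passed 0.5 FPKM in 1 sample. RAB3D had 0.229.

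The classic early and late endosome markers were low. RAB5A, the master RAB of early endosomes, had a mean of 1.27 FPKM with a range of 0.247 to 2.54, and RAB5C and RAB5B had 0.822 and 0.371. RAB7A, which controls late endosomes and lysosomes, had 0.652, with a highest value of 1.68 and a value of 0 in LLO replicate 2. The authors kept only reads with a single match in the genome, and whether copies elsewhere took reads of these genes was not tested.

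Of the members, 20 were above 0.5 FPKM in every sample and 21 never were. The latter were RAB39B, RAB31, RAB39A, RAB25, RAB12, RAB4B, RAB37, RAB34, RAB33B, RAB38, RAB43, RAB7B, RAB44, RAB29, RAB26, RAB3IL1, RAB42, RAB36 and the second rows of RAB5B, RAB2B and RAB8B. RAB36 and the second rows of RAB2B and RAB8B were listed at 0 in all 29 samples. RAB3D, RAB3A, RAB40C and RAB17 passed 0.5 FPKM in 1 to 3 samples.

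The proteins that work with RABs were given by lists of known function. Among the escort, prenylation and recycling genes, ARL6IP5 had a mean of 82.3 FPKM, and the GDP dissociation inhibitor GDI2 had 16.2. The escort genes CHM and CHML had 0.41 and 0.233. Among exchange factors RABGEF1, which activates RAB5, had 17.2, CCZ1, a part of the RAB7 exchange complex, had 9.73 and RAB3IP, which activates RAB8, had 8.38. Among effectors the early endosome tether EEA1 had 38.9, about 30.6 times RAB5A, and the RAB27 effectors SYTL2 and SYTL4 had 30.8 and 17.5, while MYRIP had 0.0293 and MLPH was listed at 0 in every sample. Of the RAB11 family interacting proteins, RAB11FIP2 had 1.58 and RAB11FIP1, RAB11FIP3, RAB11FIP4 and RAB11FIP5 were each below 0.1. Among the TBC proteins TBC1D7, which is known as a part of the TSC complex, had 37.3 and TBC1D15, a RAB7 regulator, had 20.9.

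**Figure D2:**
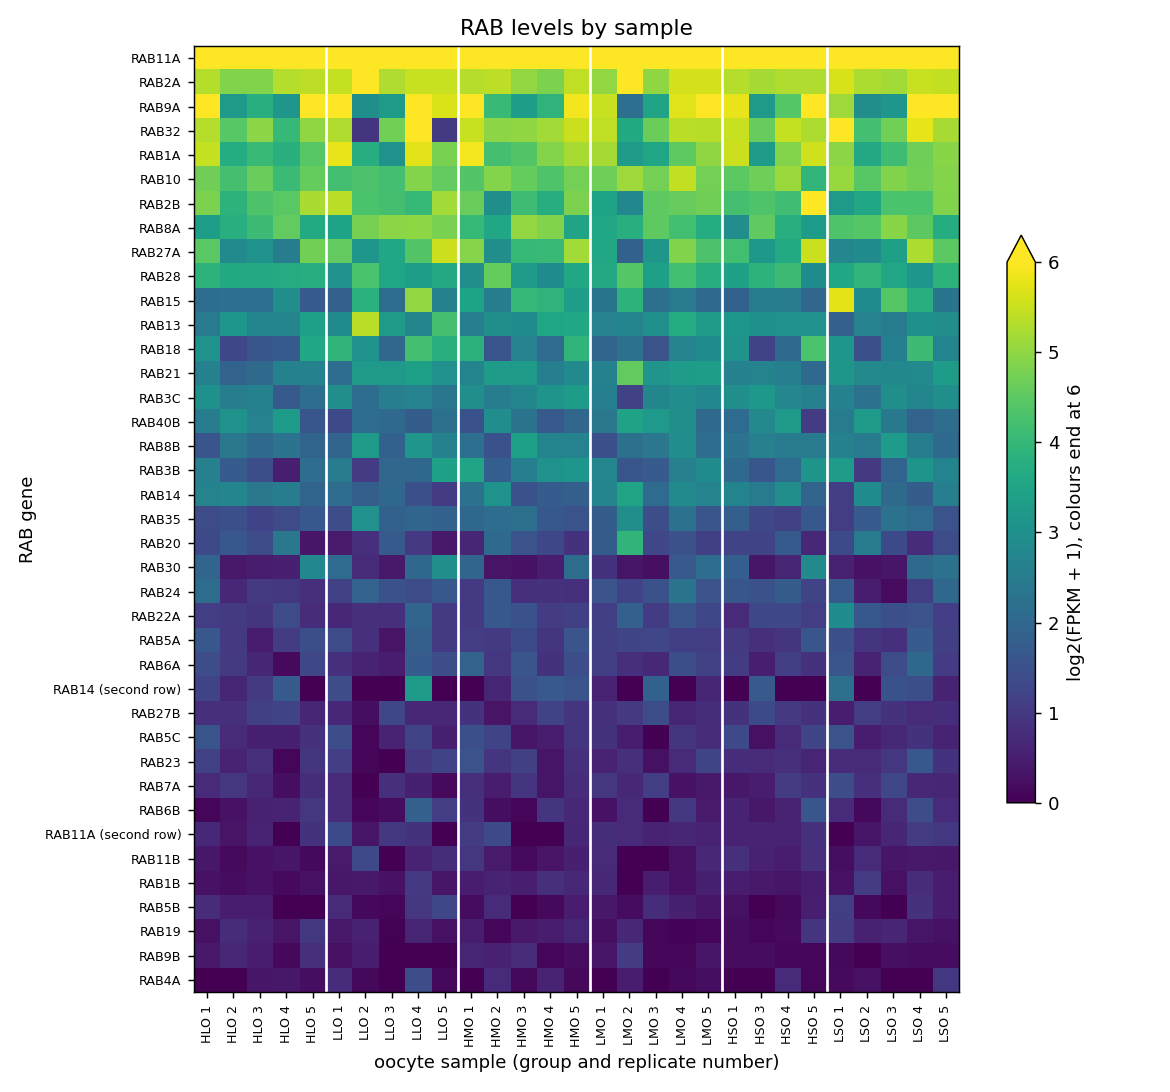
RAB levels as log2(FPKM + 1) in each of the 29 oocyte samples (columns, by group and replicate number) for the 39 RAB rows above 0.5 FPKM in at least 4 samples (rows, by mean level). Colours end at 6, so that RAB11A is at the end of the scale in every sample, and columns of 1 group differ as visibly as columns of different groups.

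The first question of the design was whether oocytes of high and low fertility goats differed at each follicle size. Genes that passed 0.5 FPKM in 4 or more samples of a comparison were tested by limma with Benjamini-Hochberg adjustment over all genes tested. In large follicles 34 RAB rows were tested and 1, RAB14, had an unadjusted p under 0.05, a share of 2.94% against 4.14% of all genes. None passed after adjustment (background 0%). In medium follicles 1 of 34, RAB24, was under 0.05, against 8.67% of all genes, and 0 passed after adjustment (background 0.0715%). In small follicles 1 of 33, RAB15, was under 0.05, against 4.41% of all genes, and 0 passed after adjustment (background 0.0119%). At each follicle size the share of RAB genes was therefore no higher than the share of all genes.

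The RAB rows were split in direction at each size. The median log2 difference of high minus low fertility over the RAB rows was -0.18 in large follicles, 0.0453 in medium and -0.12 in small. The medians of all genes tested were -0.0912, -0.0652 and -0.00609. The log2 difference was above 0 for 12 of 34 RAB rows in large, 20 of 34 in medium and 14 of 33 in small follicles. As shares these were 35.3%, 58.8% and 42.4%, against 42.4%, 43.5% and 49.2% of all genes tested.

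**Figure D3:**
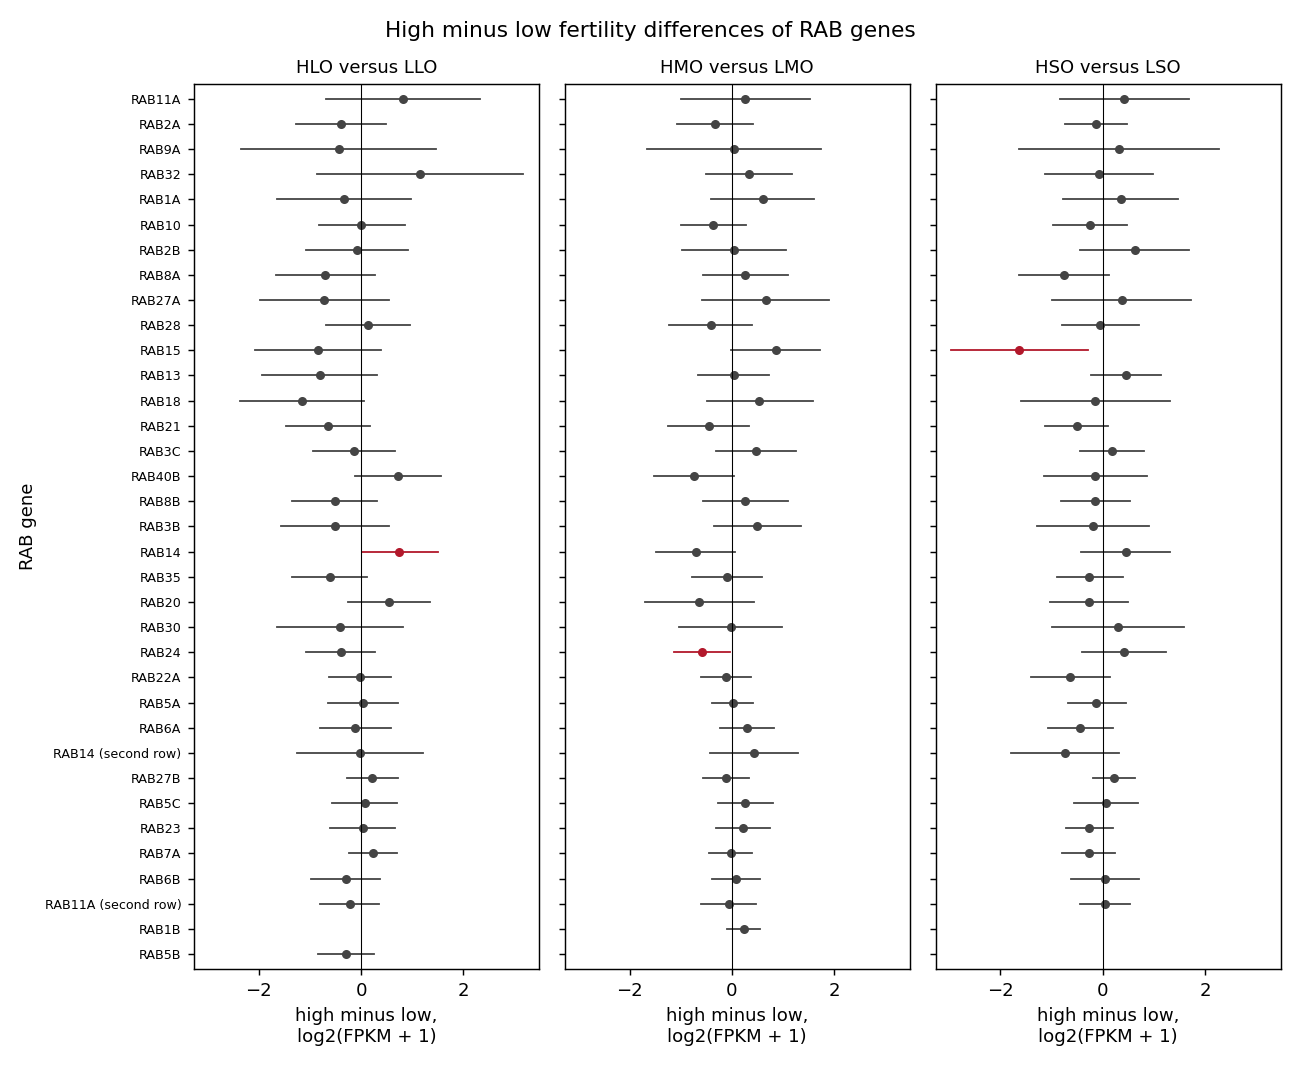
High minus low fertility difference on the log2(FPKM + 1) scale, with its 95% confidence interval from limma, for the 35 RAB rows tested in at least 1 follicle size. The panels are large (HLO versus LLO), medium (HMO versus LMO) and small (HSO versus LSO) follicles, a missing point is a row that was not tested, and red marks an unadjusted p under 0.05 (RAB14, RAB24 and RAB15). Nearly all intervals span 0, and none of the red ones passed after adjustment.

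RAB14, which moves cargo between endosomes and the Golgi, stood at 5.38, 5.78, 4.2, 4.71 and 2.82 FPKM in HLO and at 3.45, 2.52, 3.04, 1.75 and 1.07 in LLO. HLO replicates 1 to 4 lay above every LLO sample, and replicate 5 lay among them. The log2 difference was 0.75 (SE 0.345, 95% interval 0.0119 to 1.5), with unadjusted p = 0.0469 and adjusted p = 0.828 by limma. Leaving out any of 7 samples moved the unadjusted p above 0.05, to at most 0.123, and so did median-of-ratios scaling (unadjusted p = 0.0572) and quantile normalization (unadjusted p = 0.0673). RAB14 is 1 of 2 rows with this symbol, and the second row, at a mean of 1.20 FPKM and at 0 in 11 samples, is uncertain.

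RAB24, an atypical RAB known from autophagy, stood at 1.02, 2.08, 0.755, 0.81 and 0.75 FPKM in HMO and at 1.91, 1.29, 1.8, 3.95 and 1.92 in LMO. HMO replicate 2 lay among the LMO samples, and the other HMO samples lay below all of them. The log2 difference was -0.59 (SE 0.254), with unadjusted p = 0.037 and adjusted p = 0.559 by limma, and leaving out any of 7 samples moved the unadjusted p above 0.05, to at most 0.0966. With 1 limma fit over all samples the unadjusted p of RAB24 was 0.0633, and by the exact Wilcoxon test it was 0.0952. Its adjusted p ran from 0.0411, with limma array weights that let more variable samples count less, to 0.957 over the processing alternatives. With array weights 12.1% of all genes passed after adjustment in this comparison. Without LMO replicate 2 the difference was -0.7 with unadjusted p = 0.0173 by limma.

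RAB15, a RAB of early and recycling endosomes best known from neurons, stood at 2.62, 4.74, 4.53 and 2.92 FPKM in HSO and at 52.6, 6.5, 20.3, 12.5 and 4.04 in LSO. LSO replicates 1 to 4 lay above every HSO sample, and replicate 5 lay within the HSO range. The group means were 3.70 ± 1.09 (SD, n = 4) and 19.2 ± 19.7 (SD, n = 5). The log2 difference was -1.63 (SE 0.607, 95% interval -2.96 to -0.29), with unadjusted p = 0.0214 and adjusted p = 0.88 by limma. Without HSO replicate 1 the unadjusted p was 0.0543 by limma, and with all samples it was 0.0635 by the exact Wilcoxon test.

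RAB21, which guides integrins through early endosomes, was the only member whose groups did not overlap at a follicle size. It stood at 5.24, 5.38, 5 and 3.14 FPKM in HSO and at 8.11, 6.08, 5.96, 6.36 and 9.01 in LSO. Such separation was found for 1 of 33 RAB rows in small follicles (background 2.05%), and for 0 of 34 in large (background 0.432%) and 0 of 34 in medium follicles (background 1.7%). The log2 difference in small follicles was -0.51 (SE 0.281), with unadjusted p = 0.0943.

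Over all follicle sizes together, RAB21 was also the only 1 of 39 RAB rows with an unadjusted p under 0.05, against 9.99% of all genes, or 6.59% in the same direction, lower in high fertility oocytes, and 0 passed after adjustment (background 0.0103%). In HLO it stood at 5.18, 2.73, 3.18, 5.18 and 5.17 FPKM and in LLO at 3.41, 8.34, 8.34, 9.6 and 7.19. In HMO it stood at 5.5, 8.81, 8.71, 5 and 6.25 and in LMO at 5.23, 22.6, 7.76, 8.99 and 9.09. The mean was lower in high fertility oocytes at each of the 3 sizes, but only the small follicle groups were fully apart. The log2 difference, fitted as the same at every size, was -0.54 (SE 0.175, 95% interval -0.89 to -0.18), with unadjusted p = 0.00455 and adjusted p = 0.423 by limma. Leaving out each of the 29 samples in turn kept the unadjusted p between 0.00138 and 0.00955, and without LMO replicate 2, the highest sample, the difference was -0.45. Over the alternatives its adjusted p ran from 0.0447, with array weights, where 7.13% of all genes passed after adjustment, to 0.642.

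For the abundant members, the data bounded the differences only loosely. The high minus low fertility difference of RAB11A over all sizes was 0.51 on the log2 scale, with a 95% interval of -0.26 to 1.27 and unadjusted p = 0.188 by limma. It turned to -0.31 with array weights, and with median-of-ratios scaling it was 0.61 with unadjusted p = 0.0393. At single sizes it was 0.82 (-0.68 to 2.32) in large, 0.26 (-1 to 1.52) in medium and 0.42 (-0.83 to 1.68) in small follicles. The medium value turned to -0.12 without LMO replicate 2 and to -0.0513 without LMO replicate 3, to -0.68 with array weights and to -0.0635 with quantile normalization. The steadier RAB2A and RAB10 gave -0.29 (-0.61 to 0.0306) and -0.2 (-0.51 to 0.12) over all sizes. RAB9A gave -0.0386 (-1.12 to 1.04), RAB27A gave 0.1 (-0.65 to 0.84), RAB8A gave -0.38 (-0.86 to 0.088) and RAB1A gave 0.21 (-0.44 to 0.85).

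The second question was whether RAB levels changed with follicle size. In an F-test across large, medium and small follicles, 0 of 39 RAB rows had an unadjusted p under 0.05, against 1.66% of all genes, and 0 passed after adjustment in limma (background 0%). Between pairs of sizes single members stood out before adjustment. RAB32 was lower in large than in small follicles by a log2 difference of -1.1 (95% interval -2.15 to -0.0618, unadjusted p = 0.0386, adjusted p = 0.996), 1 of 39 against 3.84% of all genes. RAB21 differed by -0.48 between large and medium follicles (unadjusted p = 0.0286, adjusted p = 1, 1 of 39 against 2.4%), and RAB9B by 0.26 between medium and small follicles (unadjusted p = 0.0359, adjusted p = 1, 1 of 39 against 0.485%). RAB9B was near the floor, at a mean of 0.255 FPKM, and passed 0.5 FPKM in 5 samples, all from large or medium follicles. In small follicles it reached at most 0.18 FPKM, so it was tested only through groups where it was high. Its p-value and share therefore cannot be read as a difference. Without LMO replicate 2, a choice made after the values were seen, RAB21 differed by -0.35 (unadjusted p = 0.0735) and RAB9B by 0.18 (unadjusted p = 0.0995), while RAB32 kept -1.1 (unadjusted p = 0.0389). The unadjusted p of RAB32 rose above 0.05 without any 1 of 6 samples (HLO replicate 4, LLO replicates 2 and 5, LSO replicates 1, 4 and 5), to at most 0.11, and that of RAB21 and RAB9B without any of 6 and 7 samples.

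RAB32 was very low in a pair of LLO samples. In LLO it stood at 38.3, 0.861, 25.3, 67.5 and 1.02 FPKM, so that replicates 2 and 5 were far below all 27 other samples, which ranged upward from 11.5. In HLO it stood at 39.4, 20.6, 30.2, 15.3 and 31.2 and in LSO at 91.6, 17.4, 25.2, 54 and 36.3. Its ratio of highest to lowest sample, 106, was the largest among members above 0.5 FPKM in every sample, followed by RAB9A with 30.2 and RAB15 with 23.1.

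The third question was whether the fertility difference itself depended on follicle size. In the interaction test 3 of 39 RAB rows, or 7.69%, had an unadjusted p under 0.05, against 7.89% of all genes, and 0 passed after adjustment (background 0%). The difference of RAB15 was -0.84 in large, 0.86 in medium and -1.63 in small follicles (unadjusted p = 0.0127, adjusted p = 0.408 by limma). That of RAB14 was 0.75, -0.7 and 0.45 (unadjusted p = 0.0133, adjusted p = 0.418), so that RAB14 and RAB15 were opposite in sign at each size. Over the processing alternatives the adjusted p ran from 0.0113 to 0.677 for RAB15 and from 0.0344 to 0.715 for RAB14, and it was under 0.05 with array weights alone, a setting under which 2.38% of all genes passed. With quantile normalization the unadjusted p of RAB14 was 0.053.

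In medium follicles RAB15 stood at 10.2, 4.87, 14.9, 13.9 and 9.09 FPKM in HMO and at 4.07, 13.7, 3.64, 4.51 and 3.24 in LMO. All HMO samples were above all LMO samples but replicate 2, the one that stands apart, and the unadjusted interaction p of RAB15 without it was 0.00446. RAB40B, which is known as the substrate receptor of a cullin ubiquitin ligase, had differences of 0.72, -0.74 and -0.14 (unadjusted p = 0.0406, adjusted p = 0.604). It stood at 4.85, 7.37, 5.36, 8.64 and 2.05 FPKM in HLO and at 1.52, 3.43, 3.17, 2.43 and 3.68 in LLO, and without LMO replicate 2 its unadjusted interaction p was 0.0742. Leaving out any of 12 of the 29 samples moved that p above 0.05, to at most 0.0853, and so did 2 of 8 other settings, median-of-ratios scaling (unadjusted p = 0.121) and quantile normalization (unadjusted p = 0.136).

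**Figure D4:**
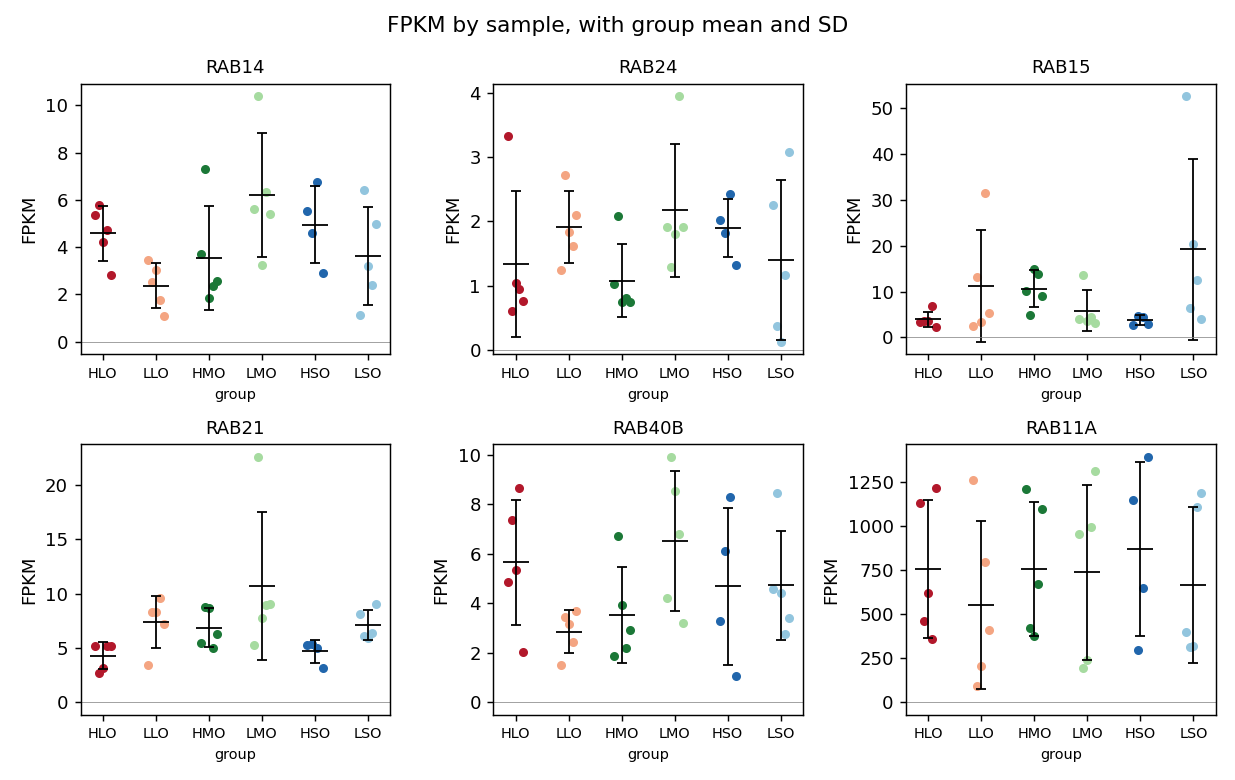
FPKM of RAB14, RAB24, RAB15, RAB21, RAB40B and RAB11A in each sample of the 6 groups, with the group mean and SD in black. RAB15 spans 4.04 to 52.6 in LSO, RAB21 spans 5.23 to 22.6 in LMO, and RAB11A overlaps between all groups.

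Within groups, the RAB levels varied with the replicate number that the labels give, a pattern noticed in the values and described without a test. RAB11A, RAB1A, RAB2B, RAB3B and RAB30 had their highest sample at number 1 or 5 in all 6 groups, 5 of 39 RAB rows or 12.8%, against 11.4% of all genes. With at least 5 groups as the limit it was 7 of 39 rows, or 17.9%, against 31.7% of all genes, so the pattern was not particular to the RAB genes. RAB1A stood at 30.2 to 59.5 FPKM in the samples numbered 1 and 20.6 to 46.2 in those numbered 5, but at 8.98 to 17.7 in those numbered 2 and 7.3 to 19.9 in those numbered 3. RAB30, a Golgi RAB, stood at 0.235 to 0.641 in the samples numbered 2 and at 3.33 to 6.76 in those numbered 5, which did not overlap.

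RAB9A went the same way, with 3.59 to 15.6 FPKM at number 2 and 7.84 to 12.5 at number 3 against 33.8 to 84.7 at number 1 and 49.3 to 109 at number 5. RAB8A was higher at numbers 3 and 4, with medians of 26 and 21.9 FPKM against 10.3 at number 1, 12.8 at number 2 and 11.8 at number 5. The samples numbered 4 were spread over both ranges, with RAB9A at 7.74 to 87.4. The labels do not say what a number stands for.

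Several marker and partner lists differed with the number as well. The summed oocyte markers had a median of 4115 FPKM at number 1 and 4854 at number 5, against 2191 at number 2 and 2013 at number 3, and the escort and recycling genes 131 and 166 against 38.2 and 48.5. The granulosa markers had medians of 7.06 and 11.2 against 3.11 and 3.44, and the theca and stroma markers 14.3 and 14.8 against 6.29 and 5.96. The effectors, at 183 and 240 against 189 and 162, and the leukocyte markers, at 6.24 and 5.2 against 4.46 and 5.34, did not separate in this way. The part of these genes in the RAB levels was not tested.

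**Figure D5:**
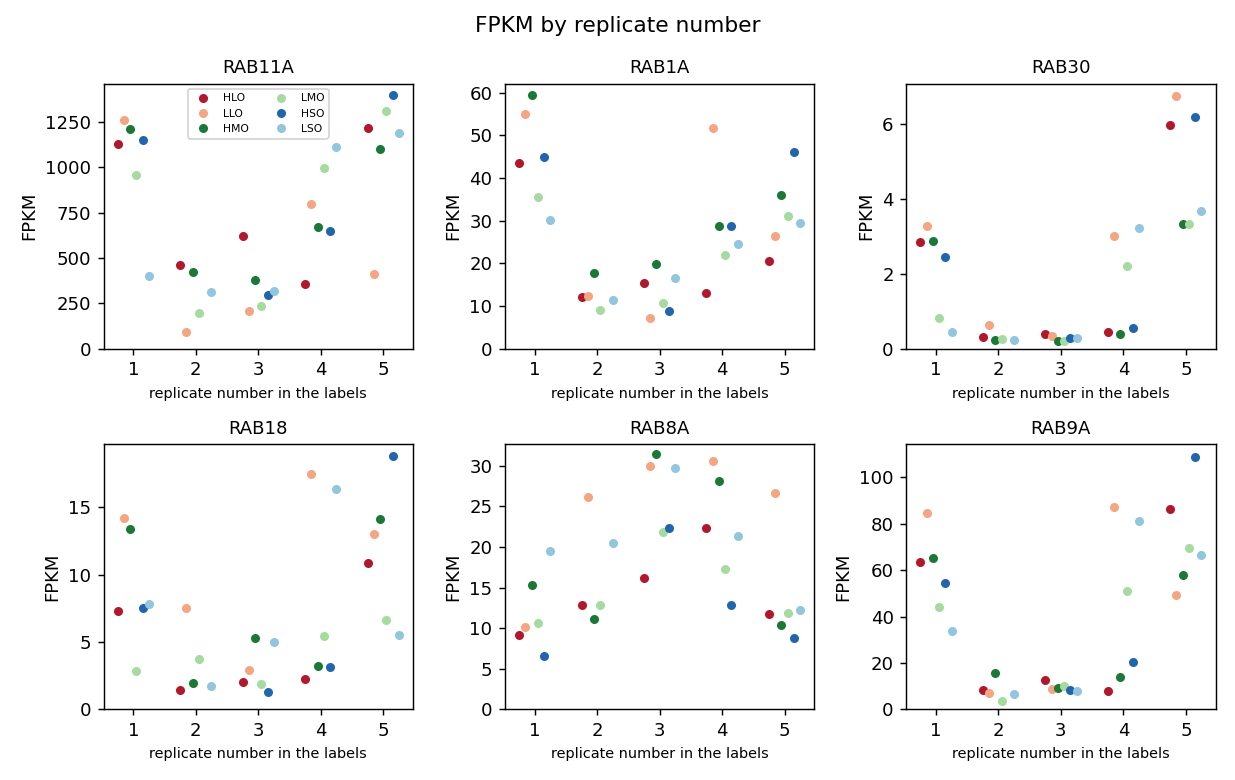
FPKM of RAB11A, RAB1A, RAB30, RAB18, RAB8A and RAB9A by the replicate number in the labels, each point 1 sample coloured by group. RAB30 and RAB9A are low in all samples numbered 2 and 3 and high in all those numbered 5, and RAB8A has its highest median at number 3.

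No partner of the RABs passed after adjustment in limma in any of the 6 tests, and counts before adjustment are given by list. Of the escort, prenylation and recycling genes (10 symbols on 12 rows), 0 of 4 to 6 tested were under an unadjusted p of 0.05 in any test. Of 36 exchange factors, 2 of 17 were under it over all sizes, or 11.8% against 9.99% of all genes, and 0 in the other 5 tests. Both were lower in high fertility oocytes, where 6.59% of all genes were. These were SH3BP5L, which activates RAB11, with a log2 difference of -0.53 (SE 0.182, unadjusted p = 0.0065, adjusted p = 0.423), and RAB3GAP2, a part of the RAB18 exchange complex, with -0.26 (unadjusted p = 0.03, adjusted p = 0.468).

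Of the TBC proteins (40 symbols on 43 rows), 1 of 16 was under 0.05 in large follicles, 0 of 17 in medium, 0 of 18 in small, 2 of 21 over all sizes, 0 of 21 across sizes and 1 of 21 in the interaction. As shares these were 6.25%, 0%, 0%, 9.52%, 0% and 4.76%, against 4.14%, 8.67%, 4.41%, 9.99%, 1.66% and 7.89% of all genes. Counted in either direction, only the single large follicle gene, a count of 1, gave a share above that of all genes. The 2 over all sizes were both lower in high fertility oocytes, where 6.59% of all genes were. TBC1D1, which acts on RAB10 and RAB8, was 1.31 higher in HLO than in LLO on the log2 scale (SE 0.568, unadjusted p = 0.0377, adjusted p = 0.828). USP6NL, which acts on RAB5, and TBC1D14, which binds RAB11, differed by -0.52 (unadjusted p = 0.0295) and -0.41 (unadjusted p = 0.0467) over all sizes, and TBC1D22A had an unadjusted interaction p of 0.0363.

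Of the effectors (56 symbols on 59 rows), 1 of 35 was under 0.05 in large follicles, 2 of 35 in medium, 1 of 35 in small, 7 of 36 over all sizes, 0 of 36 across sizes and 3 of 36 in the interaction. As shares these were 2.86%, 5.71%, 2.86%, 19.4%, 0% and 8.33%, beside the same shares of all genes as above. At single sizes and across sizes the effectors lay below all genes, and in the interaction close to them. Over all sizes they lay above, at 19.4% against 9.99% of all genes. Over all sizes 6 of the 7 were lower in high fertility oocytes, where 6.59% of all genes were, with smallest adjusted p = 0.423 and a median difference of -0.23 over the 36, against -0.0394 over all genes. They included OSBPL1A, a RAB7 effector that places late endosomes, with -0.78 (SE 0.266, unadjusted p = 0.00666), and RAB11FIP2, which links RAB11 to myosin, with -0.33 (SE 0.115, unadjusted p = 0.00706). At single sizes OSBPL1A differed by -1.24 in large follicles (unadjusted p = 0.0432), the RAB9 effector RABEPK by -0.78 (unadjusted p = 0.02) and the RAB27 effector RPH3AL by -0.63 (unadjusted p = 0.0406) in medium, and the RAB5 effector RABEP1 by -0.63 (unadjusted p = 0.0321) in small follicles. RPH3AL and the RAB7 effector PLEKHM1 had unadjusted interaction p-values of 0.0185 and 0.0491.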

How the data were processed

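Oocyte mRNA was enriched with oligo(dT) beads and sequenced on an Illumina instrument. The authors kept reads with a single match to the goat genome, removed duplicates with Picard and ran Cufflinks with Ensembl gene annotation. They deposited FPKM values for all samples. The aligner and genome build were not given in the sources used here. The single-match filter lowers genes with near-identical copies, FPKM holds no depth, and a library dominated by a few genes lowers all others. The values were used as deposited. One column (1 in all) matched no sample and was not used.

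Groups came from the labels. No test was stated for these comparisons, so limma 3.58.1 (R 4.3.3) with a mean-variance trend was fitted to log2(FPKM + 1) for every gene that exceeded 0.5 FPKM in 4 or more samples of a comparison, with Benjamini-Hochberg adjustment over all of them and a threshold of 0.05. Tests over all sizes, across sizes and between pairs of sizes came from a fit with a term for each follicle size and 1 fertility term, the same at every size. The interaction was tested in a fit of the 6 group means. The scripts were tested on simulated data. Alternatives were pseudocounts of 0.1 and 0.5, no filter or 1 FPKM, 2 other scalings, array weights, a replicate block, 1 fit over all samples, the exact Wilcoxon test and leaving out each sample. The members and lists were chosen with earlier results of these data known. Members were named by level (the 10 highest), by unadjusted p under 0.05 (at most 4 per test), by ratio of highest to lowest sample (3), or by role, and list genes by p (at most 2 per list and test). RefSeq gene names held all 59 member symbols, and no sequence or coordinate was used.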

Additional observations from a re-analysis of the deposited data

Results flagged for a closer look

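Some RAB values lay far from the other samples of their group, by Dixon's test at the 95% level. This held for 12 of the 108 sets of group values examined, or 11.1%, against 10.5% of such sets over all genes above the same limit on low values. Chance gives about 1 in 20 only for normally distributed values, and the test was run on FPKM without a log scale. Part of the members examined had been chosen for a wide ratio between samples or for a low p. RAB2A was 63.8 FPKM in LLO replicate 2 against 38.3 to 43.9 in the others, RAB1A was 43.5 in HLO replicate 1 against 12.1 to 20.6, and RAB2B was 62.8 in HSO replicate 5 against 16.8 to 19.2. RAB8A was low, at 10.1 in LLO replicate 1 against 26.2 to 30.6, and RAB28 was high, at 22.9 in HMO replicate 2 against 6.4 to 10.9. RAB24 had such a sample in 3 groups, with 3.33 in HLO replicate 1, 2.08 in HMO replicate 2 and 3.95 in LMO replicate 4. RAB15 stood out with 6.83 in HLO replicate 4 and 13.7 in LMO replicate 2, RAB21 with 22.6 in LMO replicate 2 and RAB5A with 2.04 in HSO replicate 5.

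The fertility difference of 3 members differed between follicle sizes before adjustment, by the interaction test in limma. The unadjusted p was 0.0127 for RAB15, 0.0133 for RAB14 and 0.0406 for RAB40B, and the adjusted p-values were 0.408, 0.418 and 0.604.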

How the results depend on the processing

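Counts of RAB members under an unadjusted p of 0.05 are given here in the order large, medium and small follicles, all sizes together, across sizes and interaction, where the reported counts were 1, 1, 1, 1, 0 and 3. With limma array weights, which let samples that vary more count less, they were 5, 6, 3, 6, 4 and 7, or 14.7%, 17.6%, 9.09%, 15.4%, 10.3% and 17.9%, against 16.5%, 39.8%, 8.11%, 33.8%, 8.43% and 16.7% of all genes. Members then passed after adjustment, 2 in medium follicles (RAB15 and RAB24, 5.88% against 12.1% of all genes), 1 over all sizes (RAB21, 2.56% against 7.13%) and 2 in the interaction (RAB14 and RAB15, 5.13% against 2.38%). No other alternative gave a member under an adjusted p of 0.05. Without a filter on low values the counts were 4 in large follicles (7.02% against 3.82% of all genes), 4 over all sizes (6.56% against 7.98%) and 4 across sizes (6.56% against 2.12%). With 1 fit over all samples they were 4 in large (11.8% against 11.4%) and 2 in small follicles (6.06% against 4.3%), with the exact Wilcoxon test 2 in large (5.88% against 2.47%), 0 in medium (0% against 6%) and 2 in small (6.06% against 4.12%), and with median-of-ratios scaling 2 over all sizes (RAB11A and RAB21, 5.13% against 10.4%). The cause of these shifts was not tested.

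Leaving out each sample gave 0 to 4 members in large, 0 to 4 in medium and 0 to 3 in small follicles, 1 to 3 over all sizes, 0 to 2 across sizes and 2 to 4 in the interaction, with 0 after adjustment each time. The highest counts came without HLO replicate 5 (4), HMO replicate 2 (4), HSO replicate 3 or LSO replicate 2 (3) and LLO replicate 4 (2, across sizes). Without LMO replicate 2 the counts were 2 in medium follicles, 2 over all sizes and 2 in the interaction. The RAB11A difference in medium follicles turned negative with quantile normalization (-0.0635), with array weights (-0.68) and without LMO replicate 2 (-0.12) or 3 (-0.0513), with 0.56 as the highest value when a sample was left out, and over all sizes with array weights (-0.31). The RAB11A mean was 646 FPKM with median-of-ratios scaling and 647 as a median over samples, against 725, and the 10 highest members were the same 10 in both.

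With the replicate number as a block the counts were 2, 4, 3, 2, 0 and 6, or 5.88%, 11.8%, 9.09%, 5.13%, 0% and 15.4%, against 8.21%, 16.4%, 9.41%, 15.1%, 2.86% and 14.5% of all genes, and none passed after adjustment. The numbers were not taken as pairs: of 14 high and low fertility pairs with the same number, 10 correlated above 0.1 in their deviations from the group means (range -0.481 to 0.709). Yet over all groups the median correlation was 0.47 between samples of the same number and -0.176 between samples of other numbers. Deviations from a group mean sum to 0 within the group, so the negative value is tied to the positive one and adds little to it. In addition, 21 of 29 samples correlated best with a sample of their own number. Samples of 1 number thus tended to deviate alike, which the p-values without the block do not take into account. FPKM without counts gives no floor for members at 0.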
